A study of Mus musculus with 16 samples.

Results

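The 37 genes described here encode cytokine and growth factor receptors of mouse blood progenitors and were taken by their symbols from the 23420 genes of each of the authors' deposited tables. All 37 were found in both tables. They fall into 8 classes: the gp130 family with the receptor for granulocyte colony-stimulating factor, the common beta chain family, the common gamma chain and its partners, the class II receptors for interferons and interleukin-10, the receptors for interleukins 1, 18, 33 and 17, the tumour necrosis factor receptors, the receptors for TGF-beta and activin, and receptor tyrosine kinases. Il13ra1, a chain of the interleukin-13 receptor, is placed with the common gamma chain and its partners. RNA was sequenced from sorted bone marrow cells of mice aged 40 weeks, in 16 libraries that form 4 groups of 4. Multipotent progenitors (MPP) were sorted as Lin-cKit+Sca1+CD48+CD150- cells and granulocyte-monocyte progenitors (GMP) as Lin-cKit+Sca1-CD150-CD16/32+ cells. The genotype of the WT groups is given as Tet2fl/fl, so the controls carry the floxed allele, and that of the Tet2KO groups as Tet2-/-. TET2 oxidizes methylated cytosines in DNA. The labels speak of mice whose hematopoiesis lacks Tet2 or is wildtype, and what removed the allele is not given in the sources used here. Among the 4 mice of each genotype in MPP and the 4 in GMP, 3 gave both populations by the numbers in their titles, and the remaining WT libraries have numbers that are alike but not the same, so the libraries of both comparisons are not independent.

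Cytokine receptors of class I and II have no kinase of their own and signal through JAK kinases bound to their tails, which activate STAT transcription factors. Many are built from a ligand-specific chain and a signalling chain that several receptors share, such as gp130, the common beta chain or the common gamma chain. Receptors of the interleukin-1 and tumour necrosis factor families act through adaptor proteins, those for TGF-beta are serine/threonine kinases that act on SMAD proteins, and those for insulin or angiopoietin are tyrosine kinases. In blood progenitors such receptors carry signals for survival, division and the choice of lineage.

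The deposited tables give for each gene a mean over all 8 libraries of a population, a log2 fold change with its standard error (SE), positive where Tet2KO is higher, and DESeq2 p-values. No value per library is listed, so the spread between the 4 mice of a group enters only through the SE, and the depth of the libraries is unknown. A gene was tested where its mean reached 10 and the authors had not marked it as an outlier, a mark that DESeq2 gives where 1 library stands far from the others. A gene was called where the authors' adjusted p was below 0.05. The SEs are small again at the lowest means, a pattern that shrunken fold changes give, so low genes may have changed by more than is listed. For Tet2 itself the authors' deposited table gives a change of 0.44 in MPP (log2 scale, SE 0.0992) with an adjusted p of 0.00551, and of 0.35 in GMP (SE 0.0748) with an adjusted p of 0.000409. This higher value goes against a loss of transcript in the libraries labelled Tet2KO, and as a value of the whole gene it does not check the labels. Every direction below is that of the libraries so labelled. Ly6a, which encodes Sca1 and belongs to the MPP gate, had a mean of 266 in MPP and 19.5 in GMP, and Kit a mean of 7542 and 6397, in the authors' deposited table.

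In GMP, the chains of the interleukin-6 receptor and the common beta chain rose in Tet2KO, and the alpha chain of the GM-CSF receptor and the binding chain of the interferon gamma receptor fell. In the authors' deposited table for GMP, 5 of the 31 receptor genes tested were called, against 3.96% of all 11503 genes tested. Il6st, Il6ra and Csf2rb were higher, where 1.75% of all genes tested were called higher, and Csf2ra and Ifngr1 were lower, where 2.22% were called lower. In the authors' deposited table for MPP, 1 of 28 receptor genes tested was called, against 0.616% of all 11859 genes tested. It was Tie1, a receptor tyrosine kinase of vascular and blood stem cells, which was higher, where 0.346% of all genes tested were called higher. No receptor gene was called lower in MPP, where 0.270% of all genes tested were. At an unadjusted p below 0.05 the authors' deposited tables hold 11 of the 31 receptor genes in GMP, 8 higher and 3 lower, where 1887 of all 11503 genes tested lay below it, and 4 of the 28 in MPP, all higher, where 1153 of 11859 did. Since the libraries are bulk samples, fewer cells of a type and less RNA per cell cannot be told apart in any of these values.

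More of the tested receptor genes lay above 0 than below. In the authors' deposited table for GMP, 24 of the 31 tested receptor genes lay above 0 and 7 below, or 77.4% above 0, against 50.1% of all genes tested. Their median log2 fold change was 0.08, against 0.0003 for all genes. In the authors' deposited table for MPP, 20 of 28 lay above 0, or 71.4%, against 49.1% of all genes, with medians of 0.08 and -0.0038. The 95% interval of the log2 fold change lay within 0.5 of 0 on both sides for 20 of the 31 receptor genes in GMP and 16 of the 28 in MPP, a share near that of all genes tested (7710 of 11503 and 6451 of 11859). A further 2 receptor genes in GMP and 7 in MPP carried the outlier mark, and 4 in GMP and 2 in MPP had means under 10, so 31 and 28 are not the whole of the 37.

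**Figure D1:**
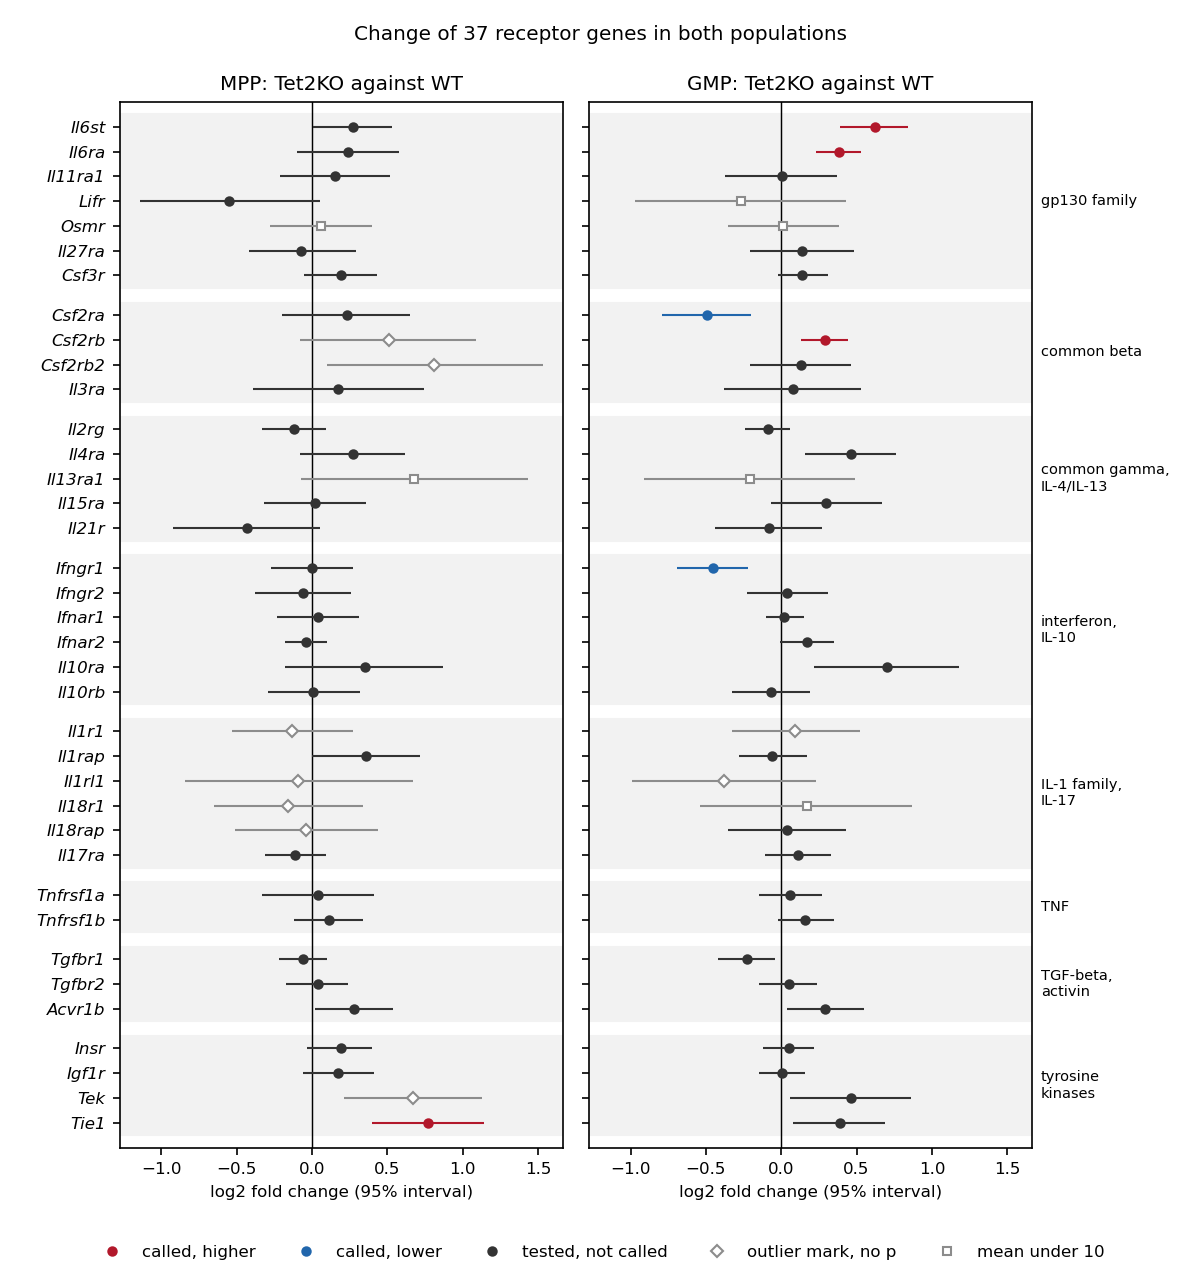
Log2 fold change, Tet2KO against WT (horizontal axis), for each of the 37 receptor genes, in MPP on the left and GMP on the right, grouped by class. Bars are 95% intervals from the authors' SEs over 4 libraries against 4, and colours mark called, tested, outlier-marked and low genes. The called genes are Tie1 in MPP and Il6st, Il6ra, Csf2rb, Csf2ra and Ifngr1 in GMP.

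The receptor genes spanned a wide range of levels. Per kilobase of merged exons, Csf3r, the receptor for granulocyte colony-stimulating factor, had the highest mean of the 37 in MPP (593), followed by the interferon chain Ifnar2 (529), the common gamma chain Il2rg (447), the interleukin-17 receptor Il17ra (345) and Ifngr1 (277), from the authors' deposited table. In GMP the order was Ifngr1 (815), Csf3r (525), Ifnar2 (478), Csf2rb (313) and the insulin-like growth factor receptor Igf1r (302), as means per kilobase from the authors' deposited table. With the longest transcript in place of merged exons, 9 of the 10 highest in MPP and 10 of 10 in GMP were shared, and Il2rg (638) came before Csf3r (615) in MPP. Without values per library, no spread can be set beside these ranks. Osmr, the oncostatin M receptor, was lowest per kilobase in both populations (0.0307 in MPP and 0.0468 in GMP), followed in MPP by Il13ra1 (1.64), a chain of the interleukin-13 receptor, and Lifr (3.05), the receptor for leukaemia inhibitory factor, and in GMP by Lifr (0.433) and Il13ra1 (0.931), from the authors' deposited table.

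Between populations the tables were normalized separately, and the median ratio of GMP to MPP over 9536 genes was 1.08, so gaps of at least 2-fold are given, with no test. Il18r1, the binding chain for interleukin-18, had a mean of 210 in MPP and 8.23 in GMP, 25.5-fold lower, in the authors' deposited table. Lifr (32.9 and 4.66), Il1r1 (1494 and 319), Il18rap (408 and 90.8) and Il27ra (212 and 80.2) were also lower in GMP by the means of the authors' deposited table. Higher in GMP were the means of Ifngr1 (789 in MPP and 2321 in GMP), Il1rl1 (108 and 302) and Csf2rb (1100 and 2277) in the authors' deposited table. Il18r1, Il1r1, Il18rap, Il1rl1 and Csf2rb carry the outlier mark in MPP, and Il1r1 and Il1rl1 also in GMP, so 1 library may weigh on these means. The genes that were lower in GMP thus include those for both interleukin-18 chains, and those that were higher include the binding chain for interferon gamma.

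**Figure D2:**
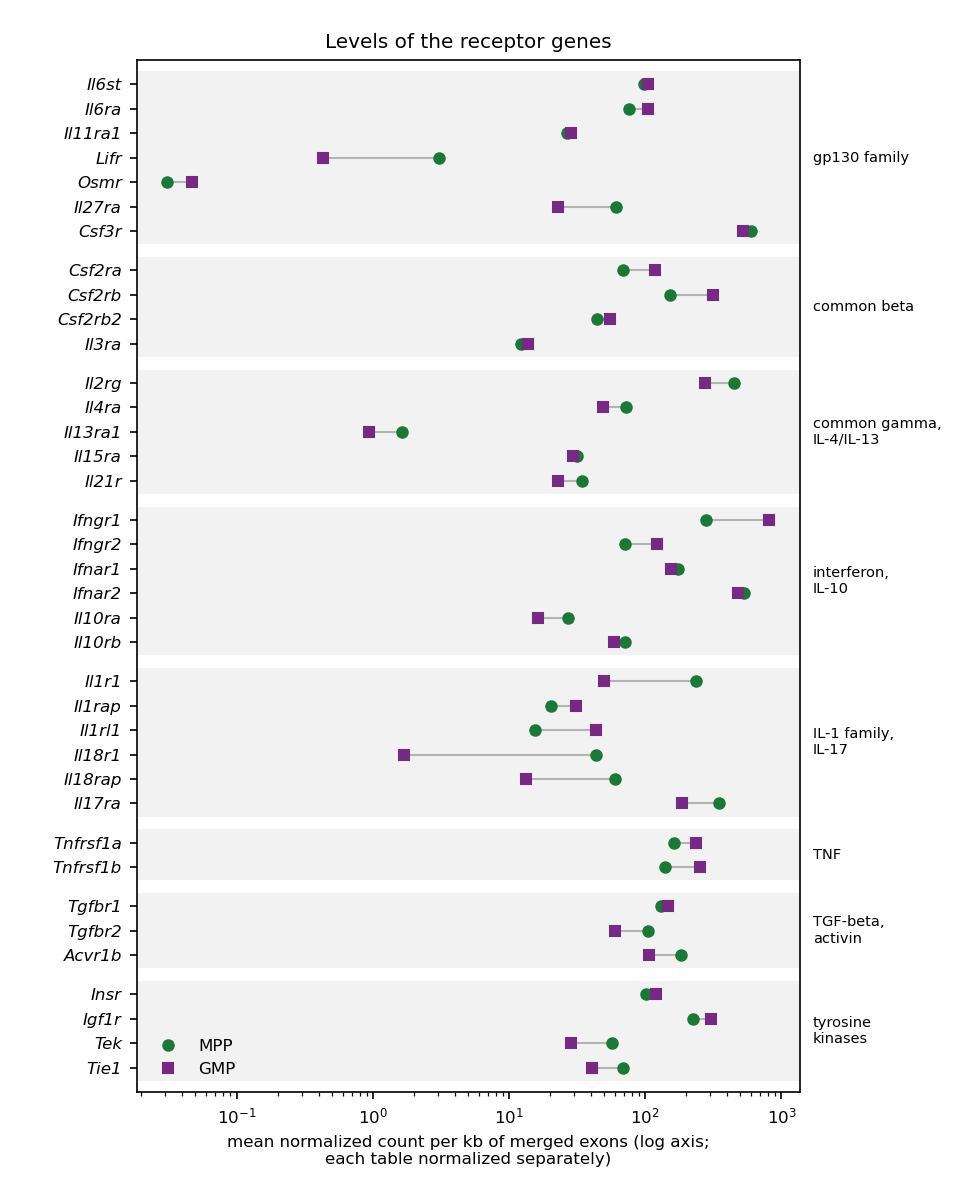
Deposited mean over the 8 libraries of a population per kilobase of merged exons (horizontal log axis) for each of the 37 receptor genes, with circles for MPP, squares for GMP and a line joining both. The longest line is that of Il18r1, lower in GMP, and Ifngr1 in GMP lies farthest to the right.

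Gp130, the product of Il6st (chromosome 13, 112464070 to 112510086, plus strand, mm10), is the signalling chain shared by the receptors for interleukin-6, interleukin-11, interleukin-27, leukaemia inhibitory factor and oncostatin M. In GMP, Il6st rose by 0.62 on the log2 scale (mean 1154, SE 0.115, adjusted p = 2.27e-05), or 1.54-fold, with a 95% interval of 0.39 to 0.84, in the authors' deposited table. In MPP its value was 0.27 (mean 1095, SE 0.131, unadjusted p = 0.0393, adjusted p = 0.481) by the authors' deposited table. Il6ra (chromosome 3, 89864059 to 89913196, minus strand), the chain that binds interleukin-6, rose in GMP by 0.38 (mean 910, SE 0.0763, adjusted p = 0.000143), with an interval of 0.23 to 0.53, in the authors' deposited table. An antisense gene model shares 1.97% of its 75-base windows. Its MPP value was 0.24 (SE 0.175, adjusted p = 0.708) by the authors' deposited table. Both chains of the interleukin-6 receptor were thus called higher in GMP and neither was called in MPP.

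None of the other ligand-specific partners of gp130 that were tested was called. Lifr in GMP (mean 4.66) and Osmr in MPP (mean 0.372) and GMP (mean 0.567) had means under 10 and so could not be called. Il11ra1, the interleukin-11 chain, had a value of 0.002 in GMP (95% interval -0.37 to 0.37) and 0.15 in MPP in the authors' deposited table, and 36.0% of its 75-base windows are shared with other gene models. Il27ra, the interleukin-27 chain, had 0.14 in GMP and -0.07 in MPP, and Lifr had -0.55 in MPP (SE 0.303, adjusted p = 0.561) by the authors' deposited table. Csf3r, whose product drives granulocyte output, had the highest mean of the class, 2141 in MPP and 1896 in GMP. Its value in MPP was 0.19 (SE 0.122, adjusted p = 0.644) and in GMP 0.14 (SE 0.0848, adjusted p = 0.409; 95% interval -0.02 to 0.31) by the authors' deposited table. Interleukin-6 itself had a mean of 5.93 in MPP and 17.3 in GMP, where its change was 0.06 (SE 0.318, adjusted p = 0.961), by the authors' deposited table.

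The upstream windows of called genes are shown because TET2 acts on methylated cytosine, most of which lies in CpG. RefSeq promoters of GRCm38.p6, the mm10 assembly, were found for 31 of the 37 genes in 39 windows of 250 bases before the start site. The receptor windows held a median of 9 CpG (range 0 to 43), against 6 over all 32851 windows (quartiles 2 and 16). Of the 6 called genes 5 had a window. Printed are Il6st (chr13:112463820-112464069, plus strand, 26 CpG), Il6ra (chr3:89913197-89913446, minus strand, 18 CpG), Csf2ra (chr19:61228419-61228668, minus strand, 17 CpG) and Ifngr1 (chr10:19591699-19591948, plus strand, 11 CpG). That of Tie1 (chr4:118489850-118490099, minus strand) holds 6 CpG and is not printed because the annotated gene covers most of it. The annotated gene also covers the last 11 bases of the printed Csf2ra window. Each is printed 5′ to 3′ on the gene's strand with every CG in capitals.
Il6st: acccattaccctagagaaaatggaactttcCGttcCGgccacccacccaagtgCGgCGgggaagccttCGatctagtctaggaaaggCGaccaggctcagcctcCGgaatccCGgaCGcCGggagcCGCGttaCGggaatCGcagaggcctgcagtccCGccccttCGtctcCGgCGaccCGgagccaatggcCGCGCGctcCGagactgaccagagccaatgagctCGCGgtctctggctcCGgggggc
Il6ra: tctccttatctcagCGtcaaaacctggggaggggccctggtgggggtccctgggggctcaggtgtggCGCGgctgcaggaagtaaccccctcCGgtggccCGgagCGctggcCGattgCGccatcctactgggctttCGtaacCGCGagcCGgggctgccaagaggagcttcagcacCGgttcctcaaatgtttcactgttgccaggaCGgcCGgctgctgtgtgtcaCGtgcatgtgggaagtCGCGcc
Csf2ra: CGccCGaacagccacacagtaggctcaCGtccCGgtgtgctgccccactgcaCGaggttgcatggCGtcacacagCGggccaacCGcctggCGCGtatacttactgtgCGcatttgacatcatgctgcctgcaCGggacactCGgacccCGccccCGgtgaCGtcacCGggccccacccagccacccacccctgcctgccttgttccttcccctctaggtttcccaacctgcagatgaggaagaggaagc
Ifngr1: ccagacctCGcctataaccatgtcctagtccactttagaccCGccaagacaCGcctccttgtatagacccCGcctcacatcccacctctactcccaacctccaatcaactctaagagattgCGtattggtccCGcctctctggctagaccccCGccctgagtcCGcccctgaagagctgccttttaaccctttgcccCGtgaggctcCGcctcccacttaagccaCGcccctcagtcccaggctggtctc
Of the 5 windows of called genes, these 4 hold more CpG than the median window, and that of Tie1 holds as many as the median window. That median is over all windows, whether or not their genes were tested. No comparison with tested genes alone was made, so the count gives no trait of called genes. The E-box CACGTG, which reads the same on both strands, occurs in 6.02% of all windows and in those of 2 receptor genes, Il6ra and Acvr1b. The STAT motif TTCNNNGAA, also the same on both strands, occurs in 7.02% of all windows and in 5 receptor genes, none of them called. The ETS motif GAGGAAGT, searched on both strands, occurs in 2.44% of all windows and in 1 receptor gene, Il18rap. These matches describe letters and not binding, and methylation was not measured here.

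The common beta chain family moved in both directions in GMP. Csf2rb (chromosome 15, 78325752 to 78353847, plus strand) encodes the beta chain shared by the receptors for GM-CSF, interleukin-3 and interleukin-5, and rose by 0.29 (mean 2277, SE 0.0808, adjusted p = 0.0187; 95% interval 0.13 to 0.44) by the authors' deposited table. Csf2ra (chromosome 19, 61223957 to 61228429, minus strand), the alpha chain that binds GM-CSF, fell by 0.49 (mean 335, SE 0.152, adjusted p = 0.0353; interval -0.79 to -0.20) by the authors' deposited table. Both chains of the GM-CSF receptor were thus called in GMP, with opposite signs. With no filter on low values the adjusted p of Csf2ra was 0.0587, and with an empirical null, which widens the null to the observed spread of all statistics, it was 0.491 for Csf2ra and 0.405 for Csf2rb. In MPP the value of Csf2ra was 0.23 (mean 197, SE 0.218, adjusted p = 0.807) by the authors' deposited table.

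Mice carry a further beta chain, Csf2rb2, which serves interleukin-3 and lies next to Csf2rb within 71 kb. In GMP it had a value of 0.13 (mean 262, SE 0.173, adjusted p = 0.794) by the authors' deposited table. In MPP both beta chain genes carried the outlier mark, with values of 0.51 for Csf2rb (SE 0.298) and 0.81 for Csf2rb2 (SE 0.365) by the authors' deposited table and no p. The exons of the pair are alike, with 7.15% of the 75-base windows of Csf2rb and 10.6% of those of Csf2rb2 shared, so part of their reads cannot be assigned to either with certainty. Il3ra, the alpha chain for interleukin-3, was weakly expressed, with means of 36.5 and 40.6 and values of 0.17 in MPP and 0.08 in GMP in the authors' deposited table.

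Of the class of the common gamma chain, its partners and Il13ra1, 4 of 5 genes were tested in each population and none was called. Il13ra1, a chain of the interleukin-13 receptor, had means of 6.1 in MPP and 3.45 in GMP and so could not be called. Il2rg, the common gamma chain itself, had the highest mean of the class (1066 in MPP and 654 in GMP) and values of -0.12 (SE 0.107, adjusted p = 0.775) and -0.09 (SE 0.0754, adjusted p = 0.608) by the authors' deposited table. It shares 26.0% of its 75-base windows with another gene model. Il4ra, which binds interleukin-4 and takes part in the interleukin-13 receptor, had 0.46 in GMP (mean 296, SE 0.154, unadjusted p = 0.00297, adjusted p = 0.0626) and 0.27 in MPP (SE 0.178, adjusted p = 0.672) by the authors' deposited table. An antisense gene model shares 7.95% of the windows of Il4ra. Its neighbour Il21r, the interleukin-21 chain 81 kb across with it, had -0.43 in MPP (mean 114, SE 0.246, unadjusted p = 0.0787) and -0.08 in GMP in the authors' deposited table. Il15ra had 0.02 in MPP and 0.30 in GMP in the authors' deposited table.

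Among the class II receptors only the interferon gamma binding chain was called. Ifngr1 (chromosome 10, 19591949 to 19610229, plus strand) fell in GMP by 0.45 (mean 2321, SE 0.121, adjusted p = 0.00983; 95% interval -0.69 to -0.22) by the authors' deposited table. In MPP its value was 0.001 (mean 789, SE 0.137, adjusted p = 0.999; interval -0.27 to 0.27) by the authors' deposited table. Ifngr2, the partner chain of the same receptor, had 0.04 in GMP (mean 461, SE 0.137; interval -0.23 to 0.31) and -0.06 in MPP in the authors' deposited table. Of the 2 chains of this receptor, 1 was thus called in GMP, and the difference between them was not tested. With an empirical null the adjusted p of Ifngr1 was 0.315.

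The type I interferon chains Ifnar1 and Ifnar2 lie with Il10rb and Ifngr2 within 193 kb of chromosome 16. Ifnar1 had 0.02 in GMP (SE 0.0647; 95% interval -0.10 to 0.15) and 0.04 in MPP in the authors' deposited table. Ifnar2 had the highest mean of the class in MPP (1762), with -0.04 there (SE 0.0712, adjusted p = 0.923) and 0.17 in GMP (SE 0.0908, adjusted p = 0.328), by the authors' deposited table. Il10ra, which binds interleukin-10, had the highest value of any tested receptor gene in GMP, 0.70 (mean 56.9, SE 0.245, unadjusted p = 0.0042, adjusted p = 0.0767), and 0.35 in MPP (SE 0.268, adjusted p = 0.733), by the authors' deposited table. It did not pass the threshold, and its partner Il10rb had -0.07 in GMP and 0.01 in MPP in the authors' deposited table. A gene model that reads across Ifnar2 and Il10rb shares 7.09% and 12.9% of their windows.

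The receptors for interleukins 1, 18 and 33 were those most often marked as outliers in MPP. The mark fell on 7 of the 35 receptor genes whose mean reached 10 in the authors' deposited table for MPP, or 20.0%, against 3.50% of all such genes, and on 2 of 33 in the GMP table, or 6.06%, against 2.66%. In MPP it fell on Il1r1, Il1rl1, Il18r1 and Il18rap, which lie together within 327 kb of chromosome 1, and on Csf2rb, Csf2rb2 and Tek. In GMP it fell on Il1r1 and Il1rl1. Which library stood apart cannot be read from the tables.

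Il1r1, the signalling receptor for interleukin-1, had values of -0.13 in MPP and 0.09 in GMP, and Il1rl1, the interleukin-33 receptor of mast cells, -0.09 in MPP (SE 0.387) and -0.38 in GMP (SE 0.310), by the authors' deposited table without p. Il18r1 and Il18rap had -0.16 and -0.04 in MPP, also without p, in the authors' deposited table. Il1rap, the chain that interleukin-1 and interleukin-33 receptors share, had 0.36 in MPP (mean 230, SE 0.183, unadjusted p = 0.0482, adjusted p = 0.507) and -0.06 in GMP (SE 0.115) by the authors' deposited table. Il17ra, with the highest mean of the class (2986 in MPP and 1600 in GMP), had -0.11 (SE 0.102, adjusted p = 0.804) and 0.11 (SE 0.111, adjusted p = 0.701) by the authors' deposited table.

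Neither tumour necrosis factor receptor was called. Tnfrsf1a, the receptor with a death domain, had 0.04 in MPP (SE 0.189; 95% interval -0.33 to 0.41) and 0.06 in GMP (SE 0.108; interval -0.15 to 0.27) by the authors' deposited table. Tnfrsf1b, the receptor without one, had 0.11 in MPP (mean 533, SE 0.116, adjusted p = 0.829) and 0.16 in GMP (mean 959, SE 0.0946, adjusted p = 0.388) by the authors' deposited table.

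Of the TGF-beta and activin receptors none was called. Acvr1b, a type I receptor for activin, had 0.28 in MPP (mean 804, SE 0.134, unadjusted p = 0.0378, adjusted p = 0.473) and 0.29 in GMP (mean 472, SE 0.13, unadjusted p = 0.0251, adjusted p = 0.213) by the authors' deposited table. Tgfbr1, the type I receptor for TGF-beta, had -0.23 in GMP (mean 963, SE 0.0966, unadjusted p = 0.016, adjusted p = 0.170) and -0.06 in MPP (SE 0.0808) by the authors' deposited table. Tgfbr2, the type II receptor that phosphorylates it, had 0.04 in MPP (mean 857, SE 0.106) and 0.05 in GMP (mean 487, SE 0.0999) by the authors' deposited table.

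Among the receptor tyrosine kinases, Tie1 was the gene called in MPP. Tie1 (chromosome 4, 118471191 to 118490061, minus strand), a receptor that pairs with the angiopoietin receptor Tek, rose in MPP by 0.77 (mean 337, SE 0.19, adjusted p = 0.0138), or 1.70-fold, with a 95% interval of 0.40 to 1.14, in the authors' deposited table. With an empirical null its adjusted p was 0.113. In GMP it had 0.39 (mean 201, SE 0.155, unadjusted p = 0.0126, adjusted p = 0.147; interval 0.08 to 0.69) by the authors' deposited table. Tek, known also as Tie2, had 0.67 in MPP (mean 269, SE 0.234; interval 0.21 to 1.13) with the outlier mark, and 0.46 in GMP (mean 135, SE 0.203, unadjusted p = 0.0238, adjusted p = 0.207), by the authors' deposited table. Both members of this pair were above 0 in both populations, with 1 of the 3 tested values called. Angpt1, the ligand that activates Tek, fell in GMP by 0.30 (mean 2175, SE 0.0735, adjusted p = 0.00319) and had -0.02 in MPP (mean 5211, adjusted p = 0.982) by the authors' deposited table. Tie1 and Tek are also expressed by endothelial cells, and of the 12 endothelial and stromal markers 5 in MPP and 3 in GMP had a mean of 10 or more. Among them Pecam1 had means of 1104 in MPP and 1274 in GMP, Eng 985 and 588, Emcn 181 and 28.7, and Esam 87.3 and 6.29 in the authors' deposited table. Cldn5 (0.379 and 0.394), Cdh5 (3.04 and 1.1) and Kdr (5.61 and 5.16) had lower means there. In MPP 4 of the 12 were tested and none was called, with a median log2 fold change of 0.19, and in GMP 3 were tested and Eng rose, with a median of 0.11. The means of the list summed to 2406 in MPP and 1916 in GMP. Pecam1 and Eng make up most of both sums, so the sums are not a measure of endothelial cells. The part of such cells in the values of Tie1 and Tek was not tested.

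The receptors for insulin and insulin-like growth factor stood near 0 in GMP. Igf1r had the highest mean of all 37 genes, 3799 in MPP and 5075 in GMP, with values of 0.17 (SE 0.122, adjusted p = 0.693) and 0.006 (SE 0.0784, adjusted p = 0.984) by the authors' deposited table, and its GMP interval ran from -0.15 to 0.16. Insr, the insulin receptor, had 0.19 in MPP (SE 0.11, adjusted p = 0.607) and 0.05 in GMP (SE 0.0875, adjusted p = 0.848) by the authors' deposited table.

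To ask whether a gene changed differently in the populations, its log2 fold change in MPP was subtracted from that in GMP and divided by the SE of this difference, taken from both SEs, in a two-sided normal test of all 17660 genes with a p in both tables. None of the 30 receptor genes tested passed an adjusted p of 0.05 by this normal test of the difference, against 0.0453% of all genes tested. All genes here include those with means under 10. Against 3.58% of all genes, 3 of the 30 receptor genes had an unadjusted p below 0.05. These were Csf2ra, with a difference of -0.72 (SE 0.266, unadjusted p = 0.00671, adjusted p = 0.996; 95% interval -1.24 to -0.20), Ifngr1, with -0.45 (SE 0.183, unadjusted p = 0.0128, adjusted p = 1), and Il6st, with 0.35 (SE 0.174, unadjusted p = 0.0455, adjusted p = 1). For Tie1 the difference was -0.38 (SE 0.245, unadjusted p = 0.118; interval -0.86 to 0.10). The calls in 1 population alone are therefore not shown to differ from the other. The test treats both errors as independent although mice are shared. With the errors set to correlate at 0.346, it called 49 of all genes and again no receptor gene. This setting is the correlation across genes of log2 fold change over SE between MPP and GMP. It may also hold changes that both populations share, so it is not a measured correlation of errors. Csf2rb, Csf2rb2, Il1r1, Il1rl1, Il18r1, Il18rap and Tek had no p in MPP and were not tested. The test of the difference had no minimum mean, so its genes include Osmr, Il13ra1 and Lifr, with means under 10 in 1 or both populations.

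**Figure D3:**
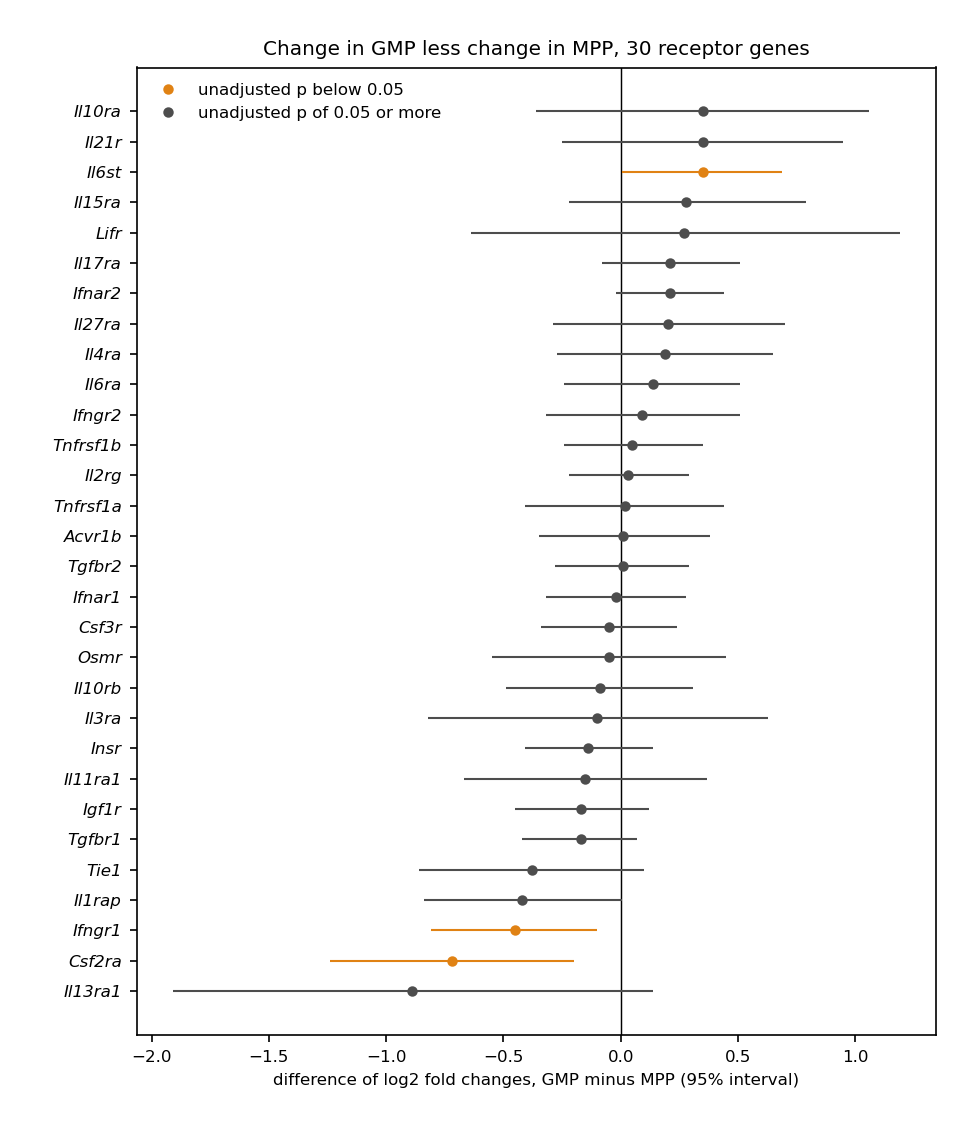
Difference between the log2 fold change in GMP and that in MPP (horizontal axis) for the 30 receptor genes with a p in both tables, sorted by value, with 95% intervals. Orange marks the 3 genes with an unadjusted p below 0.05, Il6st above 0 and Ifngr1 and Csf2ra below.

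In the lists of signalling genes, calls fell on Irf9, Bmpr2 and Eng in GMP and on no gene in MPP, against the 3.96% and 0.616% of all genes given above. Of 12 genes listed as JAK kinases and STAT factors, with Irf9 among them, 11 were tested in each population, and 1 (9.09%) was called in GMP. It was Irf9, a transcription factor of the interferon response, which rose by 0.45 (SE 0.113, adjusted p = 0.00463) by the authors' deposited table. Irf9 is neither a JAK kinase nor a STAT factor, so no tested JAK or STAT gene was called. The median log2 fold change of this list was 0.09 in both populations. Of 21 inhibitors of JAK-STAT signalling 19 were tested in each population and none was called, with medians of 0.05 in MPP and 0.04 in GMP. Socs3, an inhibitor that binds gp130, had 0.75 in GMP (mean 24.3, SE 0.289, adjusted p = 0.123) and, with the outlier mark, 0.73 in MPP in the authors' deposited table. The adaptors of interleukin-1 and tumour necrosis factor receptors (24 of 26 tested in each population) and the insulin and growth factor signal proteins (22 of 26 in MPP and 24 in GMP) held no called gene, with medians between -0.03 and 0.04.

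Of 23 SMAD signalling genes, 18 were tested in GMP and 2 (11.1%) rose, Bmpr2, a type II receptor for bone morphogenetic proteins, by 0.26 (SE 0.0569, adjusted p = 0.000781) and Eng, a co-receptor, by 0.24 (SE 0.0767, adjusted p = 0.0464), by the authors' deposited table. In MPP none of 17 was called, 15 lay above 0 and the median was 0.16 in the authors' deposited table. Of 47 ligands, 17 were tested in MPP and none was called. Of the 13 ligands tested in GMP, Angpt1 fell and Il18 rose, by 1.19 (mean 10.2, SE 0.354, adjusted p = 0.0281), by the authors' deposited table. The mean of Il18 lies just above the minimum of 10.

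Other receptors of the same kinds, 62 in all, held no gene called lower. In MPP 29 were tested, and Pdgfrb, a receptor for platelet-derived growth factor, rose by 0.83 (SE 0.186, adjusted p = 0.0045) by the authors' deposited table. In GMP 25 were tested, and Met, the hepatocyte growth factor receptor, rose by 0.86 (SE 0.14, adjusted p = 5.86e-07), Csf1r, the receptor for macrophage colony-stimulating factor, by 0.56 (SE 0.111, adjusted p = 9.29e-05) and Pdgfrb by 0.48 (SE 0.0909, adjusted p = 3.41e-05), by the authors' deposited table. The medians of this list were 0.08 in MPP and 0.01 in GMP.

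**Figure D4:**
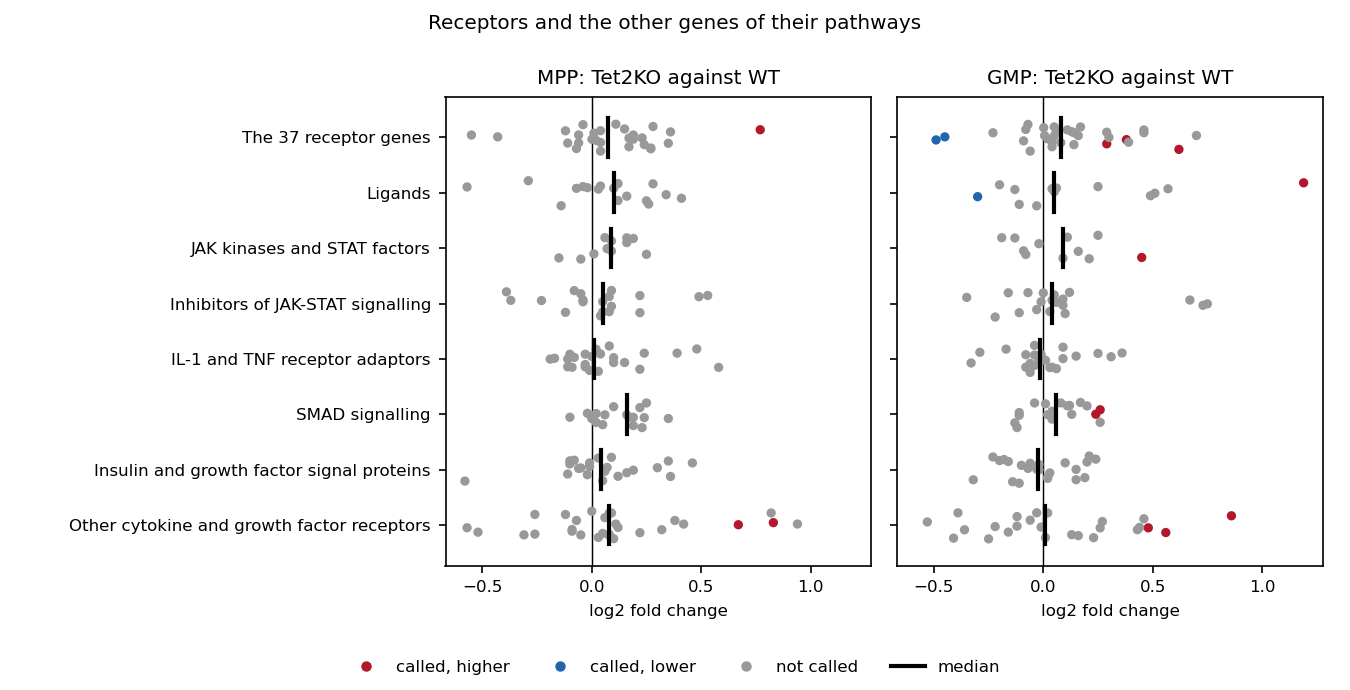
Log2 fold change, Tet2KO against WT (horizontal axis), for the tested receptor genes and 7 lists of other genes of their pathways, in MPP and GMP, with 1 point per gene and a bar at the median. Called genes are coloured, and the medians lie between -0.03 and 0.16.

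Markers of several cell types were called in GMP, where 3.96% of all genes were. Of 14 monocyte and macrophage markers 9 were tested in GMP, and 4 rose (Csf1r, Ms4a6c, Ctss and Cd68), with a median log2 fold change of 0.56 in the authors' deposited table. Of these 9, 7 lay above 0 and 2 below, Cx3cr1 (-0.30) and Ly86 (-0.18), neither of them called. Of 12 mast cell and basophil markers 6 were tested and 3 fell (Cma1, Gata2 and Csrp3), with a median of -0.51, and of 11 megakaryocyte and platelet markers 5 were tested and 3 rose (Pf4, Vwf and F2r), with a median of 0.69, in the authors' deposited table. Of 13 neutrophil granule markers 6 were tested, Mmp8 rose and Ctsg and Ms4a3 fell, with a median of -0.14, and of 10 stem cell markers 8 were tested and Mecom fell, with a median of 0.17, by the authors' deposited table. None of the 2 B cell, 3 T and NK cell and 6 dendritic cell markers tested in GMP was called, and no erythroid marker was tested, since 8 carried the outlier mark. The summed means of these lists over all GMP libraries were 6715 for monocytes, 14280 for mast cells, 1635 for megakaryocytes, 238100 for neutrophil granules and 2224 for stem cells, and sums per group cannot be had. Kit, part of the GMP gate, makes up 6397 of the mast cell sum, so that sum is not a measure of mast cells. Mpo (mean 200049) and Elane (mean 23500) make up most of the neutrophil granule sum, and 5 of its 13 markers had means under 10. That sum is thus not a measure of neutrophils, and the other sums are not taken as measures of cells either. In MPP, 6 of 7 tested megakaryocyte markers lay above 0, against 49.1% of all genes tested, with a median of 0.37, in the authors' deposited table. The 1 below 0 was Pf4, with -0.92 (mean 11.5, SE 0.384, adjusted p = 0.366) by the authors' deposited table. Its sign was opposite to that of its change in GMP, but its mean in MPP lies just above the minimum of 10. The outlier mark in MPP fell on 8 of 10 neutrophil granule markers and on 7 of 12 monocyte markers whose mean reached 10. The part of these cells in the changes of Il6st, Il6ra, Csf2rb, Csf2ra, Ifngr1 and Tie1 was not tested.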

How the data were processed

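RNA was measured in 16 libraries of sorted mouse progenitors, made from 2 ng of total RNA that was amplified and read as single ends of 75 bases, per the labels' protocols. The submitters' processing notes name STAR, mm10 and DESeq2. The read counter, its strand setting, the annotation and all versions were not given in the sources used here. As deposited, the authors' deposited tables hold a mean normalized signal per gene, the log2 fold change with its SE, and a p-value and adjusted p-value, with the direction taken from the table names. The replicates are separate mice per the labels.

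The 95% intervals, counts, levels per kilobase and the test of the difference (Benjamini-Hochberg over all genes) were computed from these with Python 3.11.15, numpy 2.4.6, pandas 2.3.3 and scipy 1.17.1, and drawn with matplotlib 3.10.9. The difference test was run on simulated data with independent errors and with differences larger than those of the receptor genes. It was thus not checked for shared mice or for differences of the sizes found here. Positions and exon lengths come from GENCODE vM21 and promoters from RefSeq. Values with SE are given for receptor genes that were called or had an unadjusted p below 0.05, and in each class for that with the highest mean and that with the smallest p. The rest appear by counts, ranges or short values. Of the other lists called genes are named, and Socs3, Il6, the sorting genes and the endothelial markers were named after their values were seen. Some genes that this rule takes are withheld and not reported. The receptor genes and all lists were chosen with earlier results of these data known. Alternatives were other thresholds, adjustments, filters, centring and an empirical null.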

Additional observations from a re-analysis of the deposited data

How the results depend on the processing

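The count of called receptor genes is 1 in MPP and 5 in GMP. At an adjusted p of 0.01 it was 0 in MPP and 3 in GMP. With an empirical null, with the Benjamini-Yekutieli adjustment and with the Bonferroni adjustment it was 0 in MPP and 2 in GMP, namely Il6st and Il6ra. With a log2 fold change of 0.5 or more in size required, it was 1 in GMP, Il6st. At an adjusted p of 0.1 it was 7 in GMP, where Il4ra and Il10ra were added. With no filter on low values it was 4 in GMP, without Csf2ra. The counts held within 1.5 times with a minimum mean of 50, with recentring and with outlier-marked genes included, an alternative chosen after seeing the data. With an empirical null the adjusted p was 0.113 for Tie1 in MPP and, in GMP, 0.491 for Csf2ra, 0.405 for Csf2rb and 0.315 for Ifngr1. The count of receptor genes that differed between populations was 0 under every alternative run, and its smallest adjusted p over the alternatives was 0.144. The cause of these differences was not tested. No paired analysis was possible because the tables hold no values per library, and leaving out a replicate was not run for the same reason. The depth is unknown. The SE of the tested receptor genes, up to 0.303 in MPP and 0.245 in GMP, limits what could be called. Over all genes it reached 0.388 in MPP and 0.359 in GMP.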
